A study of Mus musculus with 2 samples.

Results

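Gdf15 and 8 further genes of the integrated stress response were followed across the cell types of 2 single-cell RNA libraries from mouse mesentery. The 9 genes, of 28692 in the count tables, were Gdf15, Atf4, Atf3, Ddit3, Trib3, Asns, Chac1, Sesn2 and Ddit4. They were chosen by measured values of these libraries, since Gdf15 was far higher in the venous cells of the knockout. The Gdf15 contrast between the libraries is therefore given as a description, and nothing rests on it.

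The libraries hold CD31+ cells of the mesentery at postnatal day 8 (P8), 1 library for control and 1 for Flcn iΔEC mice, which carry floxed alleles of Flcn, the folliculin gene, and a tamoxifen-inducible Cre recombinase driven by a Cdh5 transgene, so that Flcn is deleted in endothelial cells. Both groups were C57BL/6 mice that received 40 μg of 4-hydroxytamoxifen per injection (P2, P3.5, P5, P6.5), and the sources do not state the genotype of the control mice. The cells were freed enzymatically, bound to CD31 beads and pooled from 3 mice per genotype before the library was made. The values are counts of unique molecular identifiers (UMIs), which mark single RNA molecules captured at their 3′ ends. The control library held 6814 cells and 64639756 UMIs, and the Flcn iΔEC library 4459 cells and 60805779 UMIs, with 6 cell barcodes found in both. With 1 library per genotype there was no replicate and no test, and every interval given is a 95% interval for counting error only.

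Genes of the sex chromosomes also set the libraries apart. Of the cells with at least 2 UMIs of Cdh5, the gene of the endothelial adhesion molecule VE-cadherin, 89.6% in the control library had UMIs of Y-linked genes without Xist, and 98.0% in the Flcn iΔEC library had Xist without Y-linked genes. Genotype, sex and library cannot be told apart in any value below. Flcn itself (chromosome 11, 59791408 to 59810016) stood at 10.2 CPM, that is UMIs of the gene per 1000000 UMIs of the group, in the 566 control cells that met the Cdh5 limit (143 counts) and at 9.74 CPM in the 892 Flcn iΔEC cells (265 counts), a ratio of 0.95 (0.773 to 1.17). This pool mixes cell types in unequal parts, and by the types named below the ratio ran from 0.621 (0.391 to 1.02) in lymphatic-like to 3.89 (1.15 to 16.8) in capillary-like cells. A deletion inside the gene can leave counts of its 3′ end as they are.

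The 1458 cells with at least 2 Cdh5 UMIs, of 11273 in all, were split by marker genes. Lymphatic-like cells (79 control and 295 Flcn iΔEC cells) carried Prox1, Mmrn1, Pdpn and Thy1. Venous-like cells (69 and 122) carried Aplnr, Selp, Vwf and Bst1, arterial-like cells (133 and 134) Gja4, Sox17 and Dll4, capillary-like cells (81 and 40) Gpihbp1, Cd36 and Rgcc, and high endothelial-like cells (56 and 77) Glycam1, Chst4 and Madcam1. The ending -like marks names given by marker lists alone. The other clusters did not meet the naming rule and are called by their leading genes. Cells below the Cdh5 limit were mostly B-like and T-like.

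The integrated stress response starts with kinases that sense stress, such as a lack of amino acids, misfolded protein in the endoplasmic reticulum, double-stranded RNA or mitochondrial damage, and phosphorylate the translation factor eIF2. Most protein synthesis then slows, while the transcription factor ATF4 is made from its mRNA at a higher rate and induces genes of amino acid synthesis, transport and cell death or recovery. Gdf15 encodes a secreted hormone of the TGF-beta superfamily that is induced by this response and also by p53, and that lowers food intake through the receptor GFRAL in the hindbrain.

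Promoter sequences of RefSeq (build GRCm38.p6, 250 bases before to 50 after each start site) were available for 9 of the 9 genes, as 10 entries. They are shown for Gdf15 and Trib3, the genes that were at least 2-fold higher in the venous-like cells of the Flcn iΔEC library, and for Atf3, the gene that was at least 2-fold lower there. Each was searched on both strands for TGATGNAA, the core of the element at which ATF4 pairs with a C/EBP factor, for TGACGTCA, the cyclic AMP response element of ATF and CREB factors, and for CACGTG, an E-box that MiT/TFE and other helix-loop-helix factors bind. None of the 3 contains another. Capitals mark a match, and positions count from the start site as 0.
Gdf15, chr8:70632407-70632706, minus strand: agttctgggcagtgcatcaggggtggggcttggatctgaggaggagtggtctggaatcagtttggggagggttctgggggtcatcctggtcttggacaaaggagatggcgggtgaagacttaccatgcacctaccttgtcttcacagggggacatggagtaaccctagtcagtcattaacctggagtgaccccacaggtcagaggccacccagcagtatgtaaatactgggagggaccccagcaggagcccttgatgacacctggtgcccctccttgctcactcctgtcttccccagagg
Gdf15, chr8:70632046-70632345, minus strand: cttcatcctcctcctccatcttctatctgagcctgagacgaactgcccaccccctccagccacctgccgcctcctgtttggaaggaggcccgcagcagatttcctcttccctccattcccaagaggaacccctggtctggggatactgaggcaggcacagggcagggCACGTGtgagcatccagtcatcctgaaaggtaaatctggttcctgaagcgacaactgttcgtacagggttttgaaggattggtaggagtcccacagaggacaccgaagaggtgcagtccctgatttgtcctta
Trib3, chr2:152344011-152344310, minus strand: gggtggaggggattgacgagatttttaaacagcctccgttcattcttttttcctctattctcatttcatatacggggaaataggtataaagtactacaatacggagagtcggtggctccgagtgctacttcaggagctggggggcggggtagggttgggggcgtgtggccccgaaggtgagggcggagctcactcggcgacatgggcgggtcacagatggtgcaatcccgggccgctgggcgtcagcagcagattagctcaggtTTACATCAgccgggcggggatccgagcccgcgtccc
Atf3, chr1:191183284-191183583, minus strand: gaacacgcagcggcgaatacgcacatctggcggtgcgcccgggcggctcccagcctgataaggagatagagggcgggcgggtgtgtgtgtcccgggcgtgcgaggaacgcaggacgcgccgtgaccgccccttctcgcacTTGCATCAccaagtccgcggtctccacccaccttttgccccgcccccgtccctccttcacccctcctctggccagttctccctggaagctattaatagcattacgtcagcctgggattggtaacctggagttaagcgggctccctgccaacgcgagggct
TGATGNAA was found in 4 of the 9 genes, starting at -110 in Atf3, 14 in Trib3, -23 in Asns and -193 in Chac1, and in 3.97% of the 32851 promoter windows of the table. Gdf15 had no match in either window, which says only that these letters are not there. CACGTG was found in 1 of the 2 Gdf15 windows, at -83, in no other member, and in 7.15% of all windows. TGACGTCA was in none of the 10 entries and in 1.79% of all windows.

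Gdf15 (ENSMUSG00000038508) is a gene of chromosome 8 (GRCm38, 70629393 to 70632456, minus strand). In venous-like cells, the type whose values chose the genes, it stood at 15.8 CPM (10.0 to 23.7) in the control library and at 412 CPM (390 to 435) in the Flcn iΔEC library. These levels rest on 23 and 1314 counts and give a ratio of 26.1 (17.3 to 41.3), the contrast the genes were chosen by. A single cell held 13 of the 23 control counts, and without the 1% of cells with the most Gdf15 in each library the log2 ratio moved from 4.65 to 5.58. It was 2.13 when each cell was assigned by its share of marker UMIs without clustering, which kept 16 control and 58 Flcn iΔEC cells, and 2.39 without integration of the libraries, which kept 1 control cell in the class.

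The difference was not limited to veins. The highest Gdf15 of the named types was in lymphatic-like cells, with 35.4 CPM (26.7 to 46.0) in the control and 1596 CPM (1568 to 1624) in the Flcn iΔEC library. Here 55 control counts faced 12470, a ratio of 45.1 (34.6 to 59.9). Arterial-like cells stood at 5.67 CPM (2.93 to 9.90; 12 counts) and 376 CPM (355 to 398; 1192 counts), a ratio of 66.3 (37.8 to 129). Their log2 ratio moved from 5.94 to 7.08 with at least 1 Cdh5 UMI, where the class held 56 control and 113 Flcn iΔEC cells. For capillary-like cells the levels were 3.16 CPM (0.652 to 9.24; 3 counts) and 312 CPM (271 to 357; 209 counts), and the ratio 98.5 (33.3 to 482). High endothelial-like cells had the lowest level of the named types in both libraries, with 0.637 CPM (0.0771 to 2.30; 2 counts) and 126 CPM (116 to 137; 525 counts), a ratio of 198 (54.5 to 1639). The ratios of capillary-like and high endothelial-like cells are loose because they rest on 3 and 2 control counts.

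In the order of levels, lymphatic-like cells of the Flcn iΔEC library stood above all other groups with at least 30 cells. Next came 2 unnamed groups that did not differ beyond counting error, 1 with 45 cells of that library alone, led by Hbb-bt, with H19 among its leading genes and the lymphatic markers Prox1, Cldn11 and Fxyd6 raised (1107 CPM, 1052 to 1164), and 1 led by Spink4 and Defa24, genes of secretory gut cells, whose other 8 leading genes, Ube2c and Prc1 among them, are genes of dividing cells (1048 CPM, 1011 to 1087). Venous-like and arterial-like cells overlapped, as did arterial-like cells and an unnamed group led by Ccl2 and Marco (344 CPM, 315 to 376), and that group and capillary-like cells. Among control groups every neighbour in the order overlapped with the next, from the lymphatic-like to the lowest. Groups farther apart could still differ. The control lymphatic-like interval (26.7 to 46.0 CPM) lay above that of each other named type, of which venous-like cells came nearest (10.0 to 23.7 CPM). The unnamed groups differed between the libraries as well. The group with genes of dividing cells had 20.1 CPM in the control library, a ratio of 52.1 (38.2 to 73.0), and an unnamed group led by Ccl4, with Ifng among its leading genes, had 11.6 CPM against 232 CPM, a ratio of 20.04 (12.4 to 34.7).

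**Figure D1:**
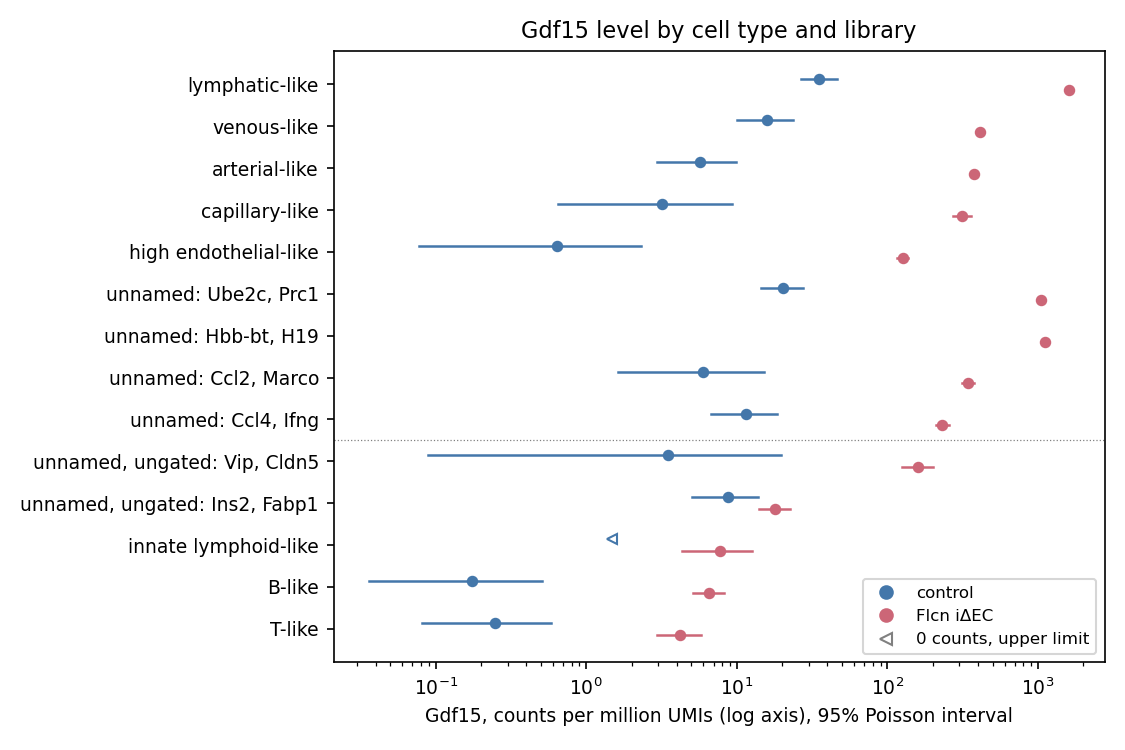
Gdf15 level (CPM, log axis) in each cell group of the control library (blue) and the Flcn iΔEC library (red), with 95% Poisson intervals as lines and a triangle for the upper limit of a group with 0 counts; groups above the dotted line met the Cdh5 limit. The Flcn iΔEC level is highest in lymphatic-like cells at 1596 CPM and stands at 4.19 CPM in T-like cells.

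Lymphatic-like cells were made of 3 clusters, which differed in Gdf15. The largest, led by Lcn2 and Fgl2, stood at 55.7 CPM in the control library and 1624 CPM in the Flcn iΔEC library, a ratio of 29.1 (22.0 to 39.4), and held 49 of the 55 control counts. A cluster led by Aqp8 and Slc41a1 stood at 11.3 and 1773 CPM, a ratio of 157 (67.2 to 484). The smallest, led by Tnxb and with Lyve1 among its leading genes, stood at 4.30 CPM (1 count) and 366 CPM, a ratio of 85.1 (15.1 to 3379). The arterial-like cells split into a cluster led by Gkn3 and Gja5 (54 control and 110 Flcn iΔEC cells), with 351 CPM in the Flcn iΔEC library, and a cluster led by Cxcl12 (79 and 24 cells), with 533 CPM. The libraries thus hold these clusters in unequal parts. The ratio was 136 (46.3 to 659; 3 control counts) in the arterial-like cluster led by Gkn3. It was 56.6 (29.3 to 125; 9 control counts) in the cluster led by Cxcl12. In each of these 5 clusters the interval of the ratio lay above 1.

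Within a type, Gdf15 was unevenly spread over the cells. In Flcn iΔEC lymphatic-like cells 92.2% of cells (88.5 to 94.99, Clopper-Pearson) had at least 1 Gdf15 UMI, 57.6% had at least 20, and the median cell had 29 and the highest 360. Venous-like cells of that library had a UMI in 63.1% of cells, a median of 2 and a highest value of 145, and the 12 cells with the most held 61.9% of the counts. Venous-like Gdf15 was thus carried mostly by few cells, whereas the 29 lymphatic-like cells with the most held 33.7% of their counts. In the control library a Gdf15 UMI was found in 13 of 79 lymphatic-like cells (16.5%, 9.06 to 26.5) and 8 of 69 venous-like cells (11.6%).

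**Figure D2:**
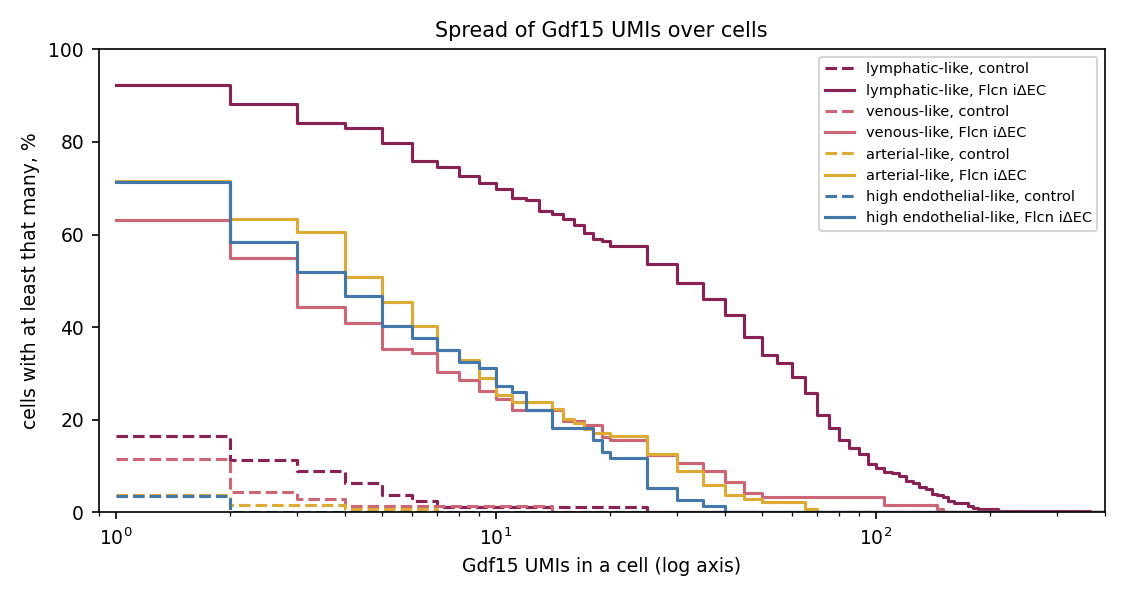
Percent of cells (vertical axis) with at least a given number of Gdf15 UMIs (horizontal log axis) in 4 endothelial types, dashed for control and solid for Flcn iΔEC. The lymphatic-like line of the Flcn iΔEC library still holds 57.6% of cells at 20 UMIs, where the venous-like line holds 15.6% and the control lines at most 1.27%.

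To set cells of unequal depth side by side, the share with a Gdf15 UMI was also computed for cells thinned to 2000 UMIs, as the mean over all draws. It was 4.06% in control and 71.2% in Flcn iΔEC lymphatic-like cells, 1.87% and 30.7% in venous-like, 0.610% and 36.0% in arterial-like, 0.619% and 34.5% in capillary-like, and 0.0596% and 20.1% in high endothelial-like cells. T-like cells, taken as a type that should lack the gene, had 0.0518% and 0.870%, and B-like cells 0.0321% and 1.43%, at median depths of 7496 and 7747 UMIs and of 6313 and 7890 UMIs. Median depth was 14466 and 23324 UMIs in lymphatic-like cells and 15793 and 19812 UMIs in venous-like cells. The Flcn iΔEC shares of all 5 named types lie far above those of lymphocytes. Of the control shares, that of high endothelial-like cells is close to the share of lymphocytes, and those of the other 4 named types lie above it.

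Free RNA in the droplets gives every type a low share of abundant transcripts. In the Flcn iΔEC library the Gdf15 level was 0.530% of the level of all Cdh5-limited cells in T-like cells (4.19 CPM, 38 counts) and 0.824% in B-like cells (6.51 CPM, 73 counts). The endothelial genes Cldn5, Esam, Tie1, Egfl7, Emcn and Tek, measured the same way, lay between 0.138% and 0.812% in T-like cells and between 0.372% and 0.788% in B-like cells. Pecam1, which lymphocytes are known to express as well, is not among these 6 and was at 14.5% in T-like and 19.4% in B-like cells. In the control library Gdf15 was at 2.14% in T-like cells (5 counts) and 1.497% in B-like cells (3 counts), and the same 6 genes lay between 0.216% and 0.596% and between 0.197% and 0.494%. Gdf15 was thus within the range of the 6 genes in Flcn iΔEC T-like cells and above it in the other 3 cases, which rest on 73, 5 and 3 counts. No difference in expression is read from the lymphocyte ratios between libraries (16.9 in T-like and 37.5 in B-like cells). Innate lymphoid and NK-like cells had 0 control counts and 7.70 CPM (15 counts), and erythroid-like cells 0 counts and 1.38 CPM (1 count).

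Outside the Cdh5 limit, a low-depth group with the neuronal gene Vip and endothelial Cldn5 among its leading genes had 3.51 CPM (1 count) in the control and 159 CPM (124 to 200; 72 counts) in the Flcn iΔEC library. All 8 pan-endothelial markers were raised in that group. An unnamed group led by Ins2, with the enterocyte genes Fabp1 and Apoa4 among its leading genes, stood at 8.69 CPM (5.06 to 13.9; 17 counts) and 17.9 CPM (14.1 to 22.4; 75 counts), a ratio of 2.06 (1.2 to 3.72). An unnamed group led by Dcn and Col1a1 stood at 7.64 CPM (3 counts) and 33.5 CPM (15 counts), a ratio of 4.38 (1.24 to 23.6). These ratios are all below those of the 5 named endothelial types, apart from the group with Cldn5.

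Markers of other cells also moved between the venous-like cells of the libraries. The 8 T cell markers, with Lck most abundant, summed to 40.5 and 9.72 CPM, with Cd4 at 0 in the control and none at 0 in the Flcn iΔEC library. The 6 fibroblast markers summed to 156 and 19.4 CPM, most of it Col3a1, with Pdgfra and Lum at 0 in both libraries and Col1a1 and Dcn at 0 in the control. The 6 B cell markers, with Ebf1 most abundant, summed to 222 and 107 CPM with none at 0. The sums of these 3 lists were thus lower in the Flcn iΔEC library, although Cd4, Col1a1 and Dcn, at 0 in the control, had counts there. Ptprc, a gene of leukocytes, stood at 8.24 and 1.88 CPM. The 6 smooth muscle and pericyte markers went the other way, at 6.18 and 19.4 CPM with Acta2 most abundant, Myh11 and Cspg4 at 0 in both libraries, Des in the control and Pdgfrb in the Flcn iΔEC library. Other types differed as well, such as capillary-like cells, whose fibroblast markers summed to 180 CPM in the control (most of it Col3a1, Pdgfra and Lum at 0) and 1.49 CPM in the Flcn iΔEC library, where all but Pdgfra were at 0. In arterial-like cells the B cell markers summed to 568 and 201 CPM, with Ebf1 most abundant and none at 0. The part of these differences in the values of the 9 genes was not tested.

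Atf4 encodes the central transcription factor of the response, whose protein is set by translation, so its mRNA is only 1 side of its activity. In venous-like cells Atf4 stood at 173 CPM (152 to 196; 252 counts) in the control and 128 CPM (116 to 141; 409 counts) in the Flcn iΔEC library, a ratio of 0.742 (0.632 to 0.871). The lymphatic-like levels were 171 and 140 CPM, a ratio of 0.820 (0.716 to 0.941), and the arterial-like levels 171 and 121 CPM, a ratio of 0.706 (0.610 to 0.817). Atf4 was thus lower in these 3 types, by less than 2-fold. Of the lymphatic-like clusters, however, only the 1 led by Lcn2 had an interval below 1 (0.738, 0.622 to 0.880). The median log2 ratio of all genes measured was -0.09 in venous-like, -0.21 in lymphatic-like and -0.14 in arterial-like cells, so that the lymphatic-like value of Atf4 (-0.29) is close to that of the typical gene. No difference was detectable in capillary-like (1.23, 0.969 to 1.56) and high endothelial-like cells (1.05, 0.953 to 1.17). Atf4 was higher in B-like cells than in any named endothelial type, at 414 and 382 CPM.

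Atf3 encodes a factor induced downstream of ATF4 and also by many other stimuli, as an immediate early gene. Its venous-like level was 170 CPM (150 to 193; 248 counts) in the control and 82.5 CPM (72.8 to 93.1; 263 counts) in the Flcn iΔEC library, a ratio of 0.485 (0.406 to 0.579). It was the only member more than 2-fold lower in a named type, among those with at least 50 summed counts. The direction changed with the type. Arterial-like cells stood at 63.8 and 107 CPM, a ratio of 1.69 (1.38 to 2.07), and high endothelial-like cells at 182 and 279 CPM, a ratio of 1.53 (1.38 to 1.70), whereas lymphatic-like cells stood at 92.6 and 72.3 CPM, a ratio of 0.781 (0.649 to 0.944). In capillary-like cells, at 125 and 92.4 CPM, the ratio of 0.737 (0.533 to 1.0101) spans 1. The ratio also differed between clusters of a type. The arterial-like cluster led by Gkn3 had a ratio of 2.93 (2.14 to 4.10) and the cluster led by Cxcl12, which holds most of the control cells, 0.729 (0.465 to 1.11), where the interval includes 1. Of the lymphatic-like clusters the 1 led by Lcn2 had a ratio of 0.590 (0.456 to 0.770), and the intervals of the other two include 1, and of the capillary-like clusters the 1 led by Esm1 had 0.320 (0.108 to 0.794) and the 1 led by Ctrb1 0.860 (0.606 to 1.21). Cells outside the endothelium differed too, with ratios of 2.58 (2.12 to 3.14) in T-like, 2.12 (1.94 to 2.32) in innate lymphoid and NK-like and 1.5 (1.43 to 1.58) in B-like cells, and lower ratios of 0.534 (0.429 to 0.661) in an unnamed group led by S100a9 and 0.623 (0.560 to 0.693) in the group led by Ins2. The Atf3 ratio thus lay on both sides of 1, depending on the type.

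Ddit3 encodes CHOP, a factor linked to cell death in lasting stress. Its venous-like level was 28.8 CPM (42 counts) in the control and 23.5 CPM (75 counts) in the Flcn iΔEC library, and the ratio of 0.816 (0.552 to 1.22) spans 1. A difference beyond counting error was found in lymphatic-like cells, with 14.2 CPM (8.87 to 21.4; 22 counts) and 22.9 CPM (19.7 to 26.5; 179 counts), a ratio of 1.62 (1.04 to 2.65), while in each of their 3 clusters the interval included 1. In the other 3 named types the ratio lay between 1.04 and 1.2 with intervals that span 1. B-like cells had more Ddit3 than these types, at 125 and 153 CPM. Groups outside the endothelium went both ways. The ratio was 1.22 (1.15 to 1.30) in B-like and 1.23 (1.11 to 1.36) in T-like cells, and 0.646 (0.485 to 0.862) in the group led by Ins2.

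Trib3, a target of ATF4 and CHOP, encodes a pseudokinase that dampens the response, and it had the largest venous-like ratio of the members after Gdf15. In venous-like cells it stood at 11.7 CPM (6.80 to 18.7; 17 counts) in the control and 35.8 CPM (29.5 to 43.0; 114 counts) in the Flcn iΔEC library, a ratio of 3.06 (1.83 to 5.44), and a UMI was found in 20.3% and 54.1% of cells. Lymphatic-like cells had the highest level of the named types in both libraries, as for Gdf15, at 22.5 CPM (35 counts) and 44.2 CPM (345 counts), a ratio of 1.96 (1.38 to 2.86). Arterial-like cells stood at 7.56 CPM (16 counts) and 15.1 CPM (48 counts), a ratio of 2.002 (1.12 to 3.78), but within their clusters the ratios of 1.47 (0.779 to 2.97) and 2.19 (0.293 to 16.3) have intervals that include 1. The ratios of high endothelial-like (1.64, 0.982 to 2.82) and capillary-like cells (2.83, 0.881 to 10.5) have intervals that include 1. Over all cells with the Cdh5 limit the ratio was 2.85 (2.38 to 3.43), and over all other cells 1.13 (0.855 to 1.49). The first of these mixes types in unequal parts, since lymphatic-like cells, with the highest Trib3 of the named types, were 79 of 566 control and 295 of 892 Flcn iΔEC cells, and it lies above the ratio of each named type but the venous-like.

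**Figure D3:**
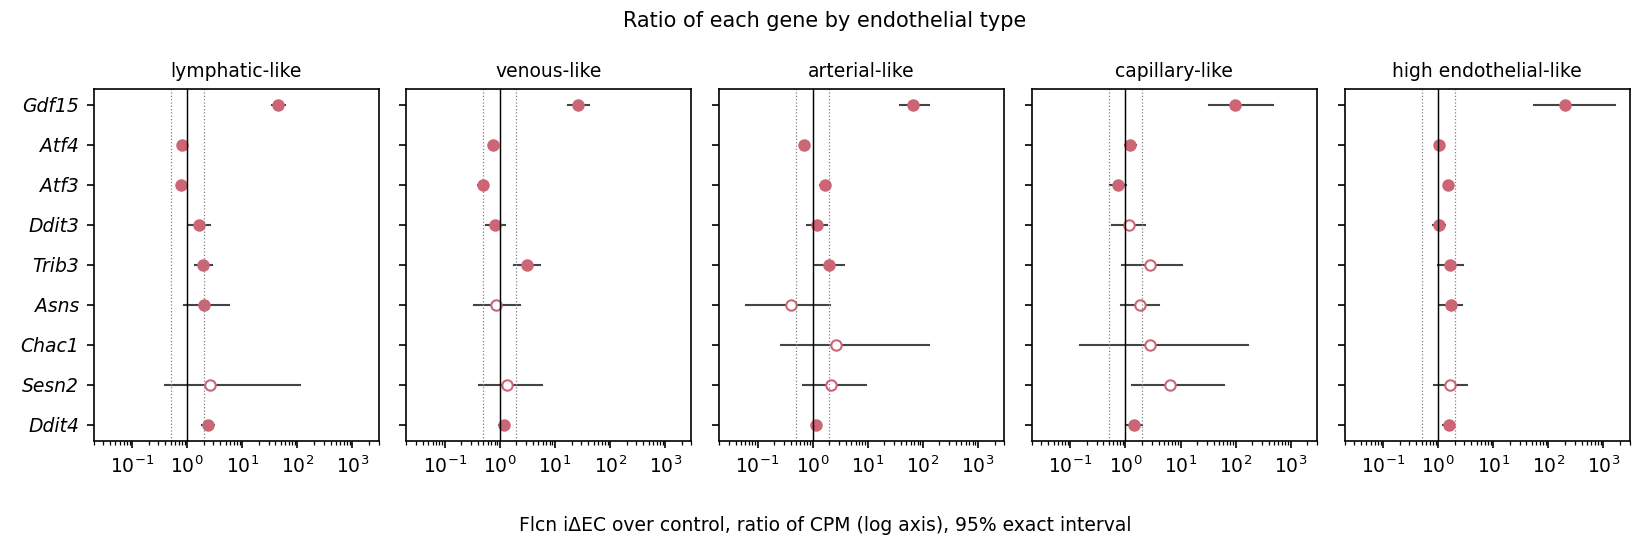
Ratio of CPM, Flcn iΔEC over control (log axis), for each gene in the 5 named endothelial types, with 95% exact intervals as lines; the solid line marks 1, dotted lines mark 2-fold in each direction, open circles mark genes with under 50 summed counts, and no point is drawn where either library had 0 counts. Gdf15 stands far to the right in each panel, while among the other genes with at least 50 summed counts the points beyond 2-fold are Trib3 at 3.06 in venous-like and 2.002 in arterial-like cells, Ddit4 at 2.35 in lymphatic-like cells and Atf3 at 0.485 in venous-like cells.

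Ddit4 encodes REDD1, an inhibitor of mTORC1 that ATF4, hypoxia and glucocorticoids induce. Lymphatic-like cells stood at 41.8 CPM (32.3 to 53.3; 65 counts) in the control and 98.3 CPM (91.5 to 105; 768 counts) in the Flcn iΔEC library, a ratio of 2.35 (1.82 to 3.08). Among the lymphatic-like clusters the ratio was largest in the 1 led by Aqp8, at 15.8 CPM (7 counts) and 121 CPM (369 counts), a ratio of 7.66 (3.68 to 19.2), against 1.68 (1.21 to 2.40) in the cluster led by Lcn2. High endothelial-like cells stood at 39.2 and 60.5 CPM, a ratio of 1.55 (1.24 to 1.93), and capillary-like cells at 79.0 and 115 CPM, a ratio of 1.45 (1.04 to 2.02), with 2.37 (1.35 to 4.28) in their cluster led by Esm1 and 1.08 (0.705 to 1.66) in the cluster led by Ctrb1. In venous-like cells the levels of 101 and 120 CPM, a ratio of 1.19 (0.982 to 1.45), did not differ beyond counting error, nor did those of 110 and 127 CPM in arterial-like cells (1.15, 0.980 to 1.36). The arterial-like clusters had ratios of 1.57 (1.25 to 1.99) in the 1 led by Gkn3 and 0.708 (0.492 to 1.001) in the 1 led by Cxcl12. Ddit4 was not particular to endothelium, since it was also higher in B-like cells (1.73, 1.55 to 1.94), T-like cells (1.25, 1.14 to 1.37) and the group led by Ins2 (3.07, 2.47 to 3.84).

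Asns, Chac1 and Sesn2 had few counts in the named endothelial types. Asns encodes asparagine synthetase, a classical ATF4 target, and had 8 counts in control and 15 in Flcn iΔEC venous-like cells, a ratio of 0.857 (0.341 to 2.33). Its ratio was past 1 beyond counting error in high endothelial-like cells alone among the named types (9.24 and 15.9 CPM, 1.72, 1.09 to 2.76). Chac1, whose product degrades glutathione, had between 0 and 7 counts in each named type and library, and in venous-like cells 3 control counts and 0 Flcn iΔEC counts. Sesn2, whose product senses leucine and restrains mTORC1, had 4 and 12 counts in venous-like cells, a ratio of 1.37 (0.415 to 5.83). In capillary-like cells Sesn2 had 2 and 9 counts, a ratio of 6.37 (1.32 to 60.5). Outside the endothelium its ratio was 1.41 (1.04 to 1.91; 95 and 87 counts) in B-like and 1.45 (1.07 to 1.97; 113 and 74 counts) in T-like cells. It was 0.207 (0.0957 to 0.423; 27 and 12 counts) in the group led by Ins2. A change of 2-fold in either direction lies within the venous-like intervals of Asns and Sesn2, so none was detectable at this depth.

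**Figure D4:**
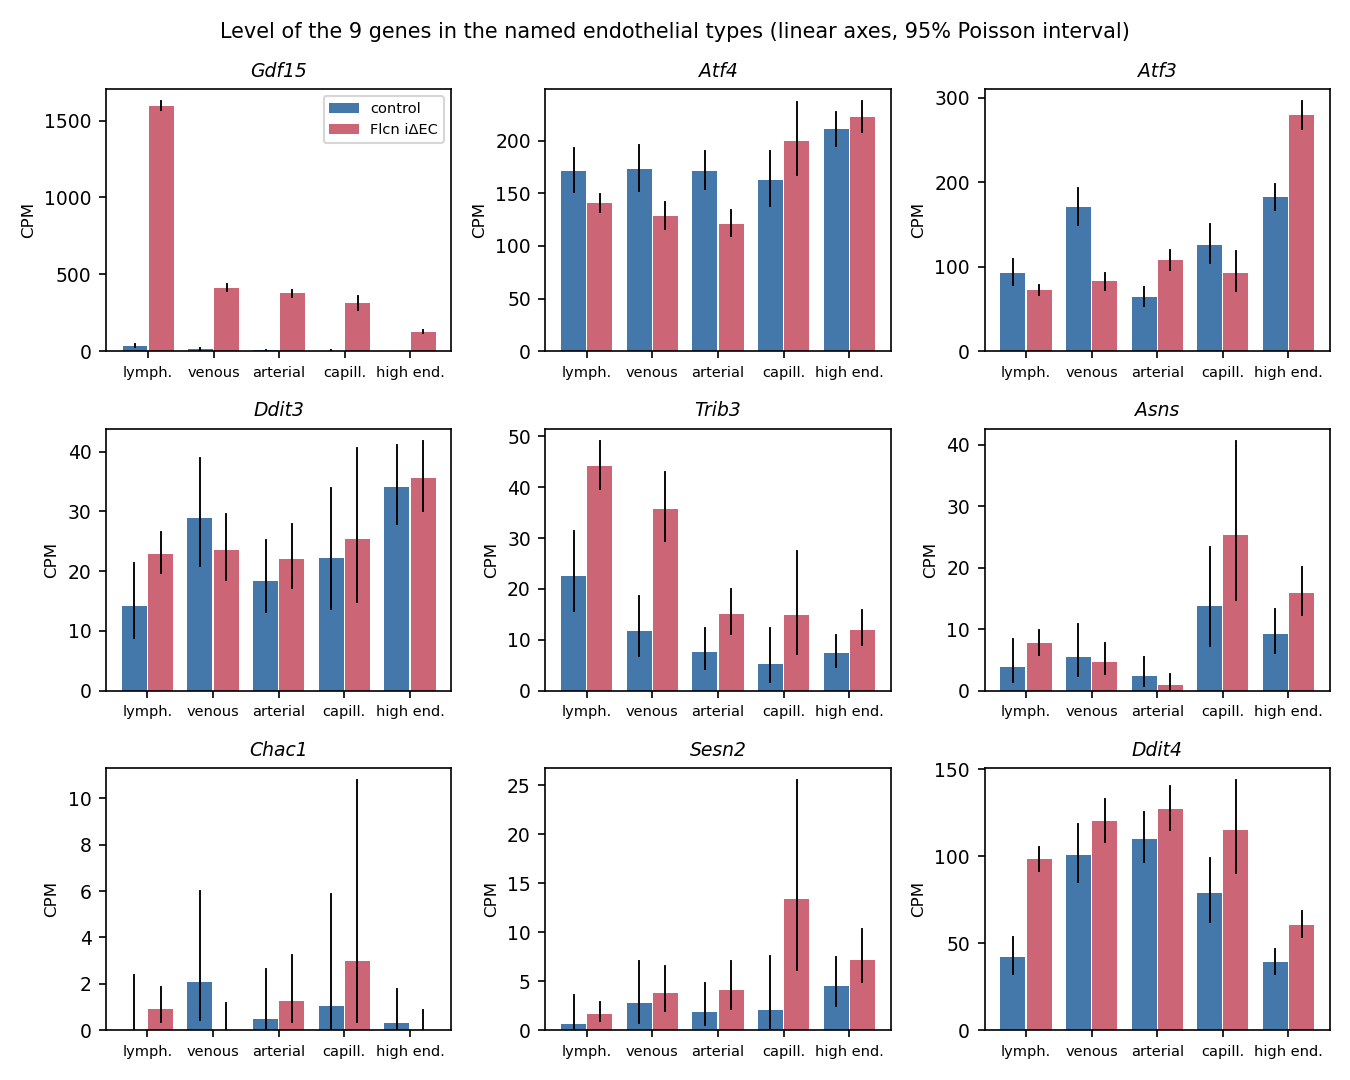
Level (CPM, linear axes that differ between panels) of the 9 genes in the 5 named endothelial types, control in blue and Flcn iΔEC in red, with 95% Poisson intervals as lines. Gdf15 is near 0 in each control bar beside 126 to 1596 CPM in the Flcn iΔEC bars, whereas the Atf4 bars of both libraries lie between 121 and 222 CPM.

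Counted together, by log2 ratios with 1 count added before scaling and a minimum of 50 summed counts, 6 of the 9 genes were measured in venous-like cells. Of these, 2 (Gdf15 and Trib3) were at least 2-fold higher in the Flcn iΔEC library and 1 (Atf3) at least 2-fold lower, where 3.23% of 8135 genes were higher and 4.57% lower by the same limits. Since the genes were selected on this contrast, nothing is read from that count. In lymphatic-like cells 7 genes were measured and 2 were higher (Gdf15 and Ddit4) and 0 lower, beside 3.66% and 6.75% of 9592 genes. Gdf15 alone was higher, and 0 lower, among 6 genes in arterial-like cells (2.32% and 4.81% of 8400 genes), 4 in capillary-like cells (3.06% and 2.15% of 4935 genes) and 7 in high endothelial-like cells (2.57% and 1.63% of 9449 genes). Trib3 in arterial-like cells, with a ratio of 2.002, fell short only through the added count (log2 ratio 0.94). The median log2 ratio of the genes measured was -0.03 in venous-like and 0.79 in lymphatic-like cells, beside -0.09 and -0.21 for all genes. Over all 9 genes, including those below the count minimum, the median was -0.30 in venous-like and 0.67 in lymphatic-like cells. With counts of 0 set to the limit of 3 counts it was -0.22 and 0.97.

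Among the 1939 genes with at least 100 CPM in 1 library, Gdf15 had the third largest ratio in venous-like cells, after Xist (0 counts and 913 CPM, at least 443-fold higher) and the imprinted RNA H19 (3.43 and 144 CPM). That rank follows from the choice of the genes by this contrast, and nothing is read from it. Uap1l1 (10.98 and 115 CPM) and Gpm6a (19.2 and 180 CPM) followed. The largest ratios downwards were those of the growth factor gene Ptn (490 and 32.6 CPM), the collagen genes Col3a1 (155 and 16 CPM) and Col4a1 (417 and 57.1 CPM), Cytl1 (183 and 30.1 CPM) and Stmn2 (229 and 37.6 CPM). Over the 8135 genes without the limit on abundance, Gdf15 ranked 4, Trib3 92, Ddit4 1781, Ddit3 5615, Atf4 6324 and Atf3 7799 from the highest ratio.

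Of the 30 listed targets of ATF4 outside the members, 17 were measured in venous-like cells, and 2 were at least 2-fold higher and 0 lower, where 3.23% of all genes were higher and 4.57% lower. The same shares stand beside the venous-like counts of the lists that follow. All lists were chosen with earlier results of these data known, so their counts are given as a description. The higher targets were Phgdh, the first enzyme of serine synthesis (3.43 and 15.7 CPM, a ratio of 4.57, 1.83 to 14.7), and Vldlr, a lipoprotein receptor (7.55 and 20.7 CPM, 2.74, 1.44 to 5.76). The median log2 ratio of the 17 was -0.07, beside -0.09 for all genes. Slc3a2, the heavy chain of amino acid transporters, had a ratio of 1.89 (1.52 to 2.36), and Xpot, Ppp1r15a and Cebpg ratios of 0.567, 0.574 and 0.605. In lymphatic-like cells Phgdh had a ratio of 3.77 (2.21 to 6.98) and was the only 1 of 20 measured targets past 2-fold upwards (3.66% of all genes), while Aldh18a1, Jdp2 and, with 1 count added alone, Slc6a9 (log2 ratio -1.02; ratio 0.504) were past it downwards (6.75% of all genes), and the median was -0.32 beside -0.21 for all genes. In capillary-like cells 0 of 7 were past 2-fold, beside 3.06% of all genes higher and 2.15% lower. The median of the 7 was 0.45, beside -0.04 for all genes. In arterial-like cells 0 of 15 were higher and 1 (Cebpg) lower, beside 2.32% and 4.81% of all genes. Of 19 targets in high endothelial-like cells, Rhoq was past 2-fold upwards (2.16, 1.33 to 3.65) and Phgdh downwards (0.474, 0.325 to 0.686), beside 2.57% and 1.63% of all genes, and the median was 0.01, as for all genes.

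The tRNA synthetases, many of which ATF4 induces, gave 0 of 20 genes past 2-fold in venous-like cells and a median log2 ratio of 0.08. Rars (31.6 and 54.3 CPM, a ratio of 1.72, 1.24 to 2.43) was the farthest from 1. The eIF2 kinases, eIF2 alpha and the phosphatase subunits that reverse its phosphorylation gave 0 of 8 past 2-fold and a median of -0.36, with Ppp1r15b at 0.545 (0.371 to 0.803) and Ppp1r15a, already counted among the ATF4 targets, at 0.574 (0.502 to 0.656), and Dele1 was not in the tables under that name. In lymphatic-like cells Eif2ak4, the kinase GCN2 that senses amino acid lack, stood at 5.15 CPM (8 counts) and 13.7 CPM (107 counts), a ratio of 2.66 (1.30 to 6.32). It was the only 1 of the 8 with a log2 ratio above 0 there, where the median was -0.24 beside -0.21 for all genes and 3.66% of all genes were past 2-fold upwards. Genes of the ATF6 and XBP1 arms of the unfolded protein response gave 0 of 15 past 2-fold in venous-like cells. Their median was -0.30, beside -0.09 for all genes, and 0 of the 15 had a log2 ratio above 0. The chaperone gene Hspa5 stood at 664 and 470 CPM, a ratio of 0.709 (0.653 to 0.769). In venous-like cells the median of the tRNA synthetases (0.08) thus lay above the -0.09 of all genes. The medians of the eIF2 list (-0.36, with 3 of 8 genes above 0) and of the unfolded protein response list lay below it.

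p53 is another known inducer of Gdf15. Of its 14 listed targets, 12 were measured in venous-like cells and 0 were past 2-fold, with a median log2 ratio of 0.52. Bax stood at 171 and 332 CPM (a ratio of 1.94, 1.69 to 2.24) and Cdkn1a, the cell cycle inhibitor p21, at 99.5 and 178 CPM (1.79, 1.49 to 2.16), while Btg2 was at 0.598. Past 2-fold upwards were 6 of 13 in high endothelial-like cells (median 0.86; 2.57% of all genes), 4 of 8 in capillary-like cells (0.97; 3.06%), and Cdkn1a alone in arterial-like cells (1 of 11, median 0.06; 2.32%) and lymphatic-like cells (1 of 12, median 0.05; 3.66%). The ratio of Cdkn1a was 6.35 (4.5 to 9.14) in capillary-like, 4.24 (3.00 to 6.17) in lymphatic-like, 3.77 (2.95 to 4.89) in arterial-like and 2.57 (2.34 to 2.83) in high endothelial-like cells.

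Targets of the MiT/TFE factors, which folliculin is known to hold in the cytoplasm, had the highest median of the lists in venous-like cells. There 9 of 17 measured genes were past 2-fold upwards (3.23% of all genes), 1 (Tfeb, 0.432, 0.291 to 0.641) was past it downwards (4.57%), and the median was 1.03. This list too was chosen with earlier results of these data known, so the count is given as a description. It includes Flcn itself and the factor genes Tfeb, Tfe3 and Mitf. Hmox1, heme oxygenase 1, stood at 16.5 and 56.5 CPM (3.43, 2.23 to 5.49), Sqstm1, an autophagy receptor, at 56.3 and 162 CPM (2.89, 2.28 to 3.69), and Ctsd, a lysosomal protease, at 200 and 481 CPM (2.41, 2.12 to 2.74). In lymphatic-like cells 10 of 22 were past 2-fold upwards (3.66% of all genes) and 1 downwards (6.75%), with a median of 0.73. Upwards were also 7 of 12 in capillary-like cells (median 1.19; 3.06% of all genes), 4 of 20 in high endothelial-like cells (0.61; 2.57%) and 3 of 18 in arterial-like cells (0.60; 2.32%). This list was above the median of all genes in each of the 5 named types, and so was the p53 list. In high endothelial-like cells the p53 median of 0.86 was above the 0.61 of this list.

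Immediate early and heat shock genes, which respond to handling of cells as well as to stress, stood on both sides in venous-like cells, with a median of -0.61 over 18 genes. Hspa1a (53.5 and 345 CPM, a ratio of 6.45, 5.12 to 8.22) and Hspa1b (33.6 and 117 CPM, 3.48, 2.58 to 4.79) were past 2-fold upwards there and in each of the other 4 named types. Past 2-fold downwards, together with Atf3, were Fos (885 and 375 CPM), Fosb (502 and 173 CPM), Ier3 (516 and 223 CPM) and Nr4a1 (49.4 and 22.9 CPM). The part of handling in the Atf3 difference was not tested. Of 17 relatives of Gdf15, receptor genes and converting enzymes, 5 were measured in venous-like cells and 2 were past 2-fold downwards, Tgfb2 (39.8 and 11.3 CPM) and Bmp2 (30.2 and 14.1 CPM), with 0 upwards and a median of -0.69. Elsewhere genes of this list were past 2-fold upwards, namely Inhbb, 1 of 3, in capillary-like cells (3.06% of all genes), Inhbb and Gdf10, 2 of 6, in high endothelial-like cells (2.57%; median 0.79) and Gdf10 and Gdf11, 2 of 8, in lymphatic-like cells (3.66%), where Bmp4 and Pcsk6 were past it downwards (6.75%; median -0.20). In arterial-like cells 2 of 6, Tgfb2 and Gdf11, were past it downwards (4.81%; median -0.18).

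**Figure D5:**
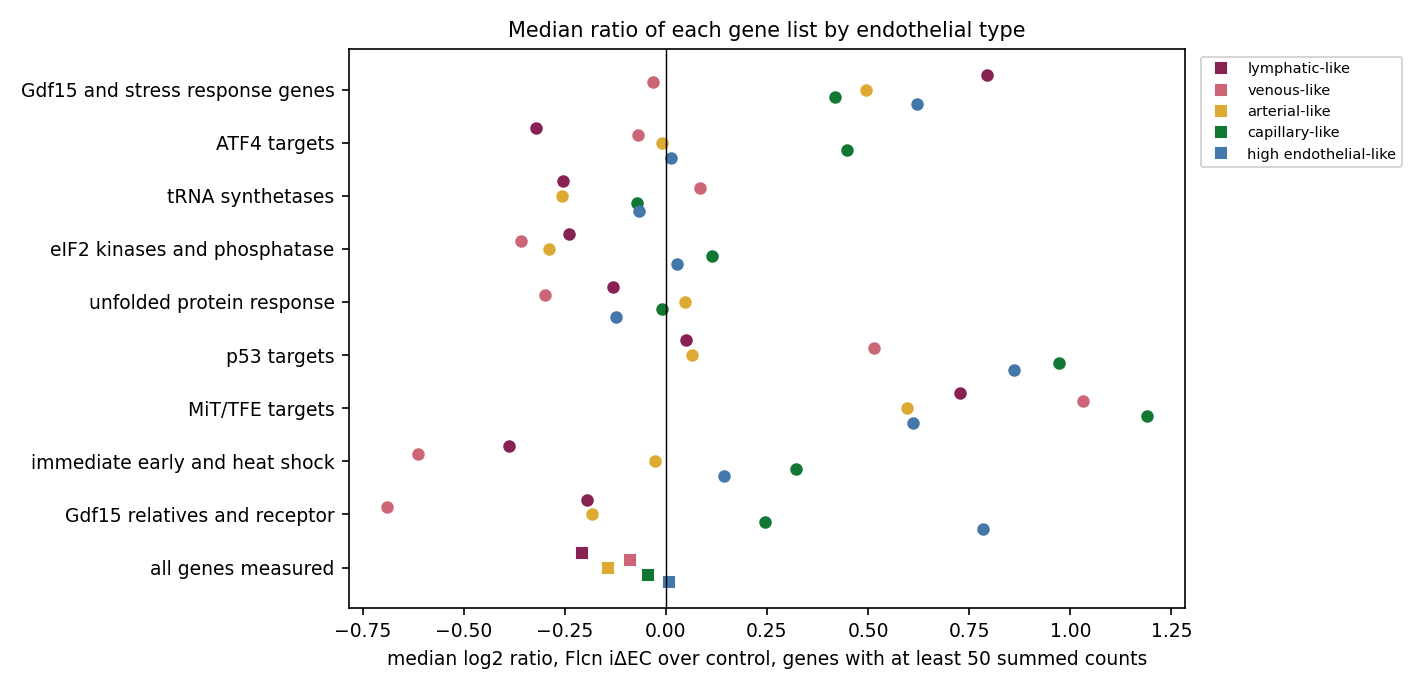
Median log2 ratio, Flcn iΔEC over control, of the members and of each gene list in the 5 named endothelial types, over genes with at least 50 summed counts, with squares for all genes measured. The MiT/TFE list lies between 0.60 and 1.19, and the ATF4 targets between -0.32 and 0.45, around the squares at -0.21 to 0.01; the first entry holds Gdf15 itself and describes genes selected on this contrast.

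The genes with the pattern most like that of Gdf15 were sought over 40 groups of at least 30 cells, each a cell type in 1 library, by Pearson's r of log2 CPM with 10 CPM added, among 4542 genes with at least 100 CPM in a group. The closest were Ahnak2 (r = 0.93), Plat (0.90), Tc2n (0.83), Pgf (0.83) and Irx3 (0.83). Plat, the tissue plasminogen activator, stood at 153 and 1774 CPM in the lymphatic-like cells of the control and the Flcn iΔEC library, and at 28.8 and 127 CPM in venous-like cells. Ahnak2 stood at 30.2 and 184 CPM in the lymphatic-like and at 37.1 and 302 CPM in the venous-like cells. Among the members, Trib3 had r = 0.87, Ddit4 0.38, Chac1 0.31, Asns 0.25, Atf3 0.11, Sesn2 -0.08, Atf4 -0.21 and Ddit3 -0.37, with Trib3, Chac1, Asns and Sesn2 below the limit of 100 CPM in every group. The 40 groups include the venous-like cells of both libraries, whose Gdf15 contrast chose the genes. The groups also share 2 libraries and differ in depth. The values of r are therefore given as a description of likeness, and nothing is read from the order of the members.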

How the data were processed

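The deposited values are raw UMI counts per gene and cell, which the authors made with Cell Ranger 3.0 on build mm10 (submitters' processing notes). The 9 members and the 8 gene lists were chosen with earlier results of these data known. All deposited cells were kept, including 139 control and 36 Flcn iΔEC cells called doublets by Scrublet in scanpy 1.11.5. Cells with at least 2 Cdh5 UMIs, and the others, were clustered apart in Seurat 5.3.0 (R 4.3.3) with anchor integration, 2000 variable features without the members, list genes, Flcn and sex-linked genes, 30 dimensions and a resolution of 0.8. A cluster was named with at least 3 markers of a list 2-fold above the other cells (5 CPM added), unless its 10 leading genes held more markers of another class, a second list reached 0.75 of the leading share, or its depth was low. These limits were set after the clusters were seen. UMIs were summed per type and library in Python 3.11.15 (numpy 2.4.6, scipy 1.17.1, pandas 2.3.3; figures with matplotlib 3.10.9). Levels carry exact Poisson, ratios exact conditional and shares Clopper-Pearson intervals, at 95%. Log2 ratios had 1 count added, genes needed 50 summed counts, and a count of 0 was given the limit of 3 counts. The calculation was tested on simulated data. Named genes were the members, up to 6 per list by venous-like ratio, the 5 largest ratios each way, the 5 patterns most like Gdf15, and Flcn, Xist and Y-linked genes. List genes named for other types were chosen after their values were seen. Alternatives covered the Cdh5 limit, cell filters, integration, resolution, assignment, scaling, count minimum and thinning.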

Additional observations from a re-analysis of the deposited data

How the results depend on the processing

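Of the results that carry the report, 97 values under the alternatives lay within the counting interval or 1.5 times the reported value, 15 moved, and 0 turned direction. Turning was counted only for reported log2 ratios of at least 1 in size. The medians of the 9 genes also kept their sign (-2.14 to -0.22 in venous-like, 0.15 to 0.89 in lymphatic-like cells). Their counting interval was that of the middle gene, in venous-like cells Asns with 8 and 15 counts, and was therefore wide. The Gdf15 log2 ratio stayed above 0 in venous-like, lymphatic-like, arterial-like and capillary-like cells under each alternative that gave a value. In venous-like cells (reported 4.65) it moved to 3.81 at a resolution of 1.6, 2.39 without integration, 2.13 with cells assigned by marker share, and 5.58 without the 1% of cells richest in Gdf15. In lymphatic-like cells (5.47) it moved to 6.10 as a mean over cells and 6.04 without the richest cells, and in arterial-like cells (5.94) to 7.08 with at least 1 Cdh5 UMI. Without integration, which left 1 control cell in the venous-like class, the median of the 9 genes moved to -2.14, the percent of genes higher to 1.54, the percent lower to 62.9 and the number of ATF4 targets higher from 2 to 0. That number was 1 with at least 5 Cdh5 UMIs and 1 with assignment by marker share. Without a count minimum the percents were 4.94 and 16.5. Apart from the single control cell and the richest cells, the cause was not tested. No capillary-like class formed at a resolution of 0.4 or with at least 5 Cdh5 UMIs. An alternative chosen after seeing the data, no integration with every venous-led cluster counted (64 control and 131 Flcn iΔEC cells), gave 4.59 for Gdf15, -0.24 for the median, 3.31% higher, 4.37% lower and 2 targets. No paired analysis was possible because each genotype has 1 library. Depth limits Asns, Chac1 and Sesn2 most, and control Gdf15 in capillary-like and high endothelial-like cells rests on 3 and 2 counts.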
